A study of Mus musculus with 28 samples.

Results

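A set of 48 rows of the expression table, 18 of whole genes and 30 of single transcripts, had a higher mean in KEAP1-deleted 3LL cells and tumors than in wild type (WT), and also in those with NRF2 deleted as well, and was described across the 7 groups of the study. A member is called by its gene symbol, but for a transcript row the values are those of that transcript and not of the gene. The members were selected on group means of the deposited values among the 18509 rows of the table that carry a gene symbol. A row was taken when KEAP1-KO cells and double-knockout (DKO) cells both exceeded WT cells by 1 or more, when KEAP1-KO tumors of Experiment A and DKO tumors of Experiment B both exceeded WT tumors by 1 or more, and when the mean of KEAP1-KO cells was 5 or more. All values are log2(normalized count + 4), so that a row without reads stands at exactly 2, and a difference of 1 is close to a doubling for abundant RNAs and understates the fold change of scarce ones. Of all 43143 rows, 9 more without a symbol met the same thresholds and are given at the end. These values chose the members, so the 4 differences are described without a test.

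3LL is a mouse Lewis lung carcinoma line. KEAP1-KO cells carry a CRISPR-Cas9 edit in exon 2 of Keap1 and DKO cells carry a further edit in exon 5 of Nfe2l2, the gene of NRF2. Both are clones grown from single colonies, and the DKO clone was made from KEAP1-KO cells, so features of the first clone other than the edit cannot be told apart from the loss of KEAP1. Cells were cultured (4 libraries each of WT, KEAP1-KO and DKO), or were injected under the skin of both flanks of albino C57BL/6 male mice of 6 weeks, and the tumors were taken after 10 days. Experiment A set WT tumors on the left against KEAP1-KO tumors on the right, and Experiment B set KEAP1-KO tumors on the left against DKO tumors on the right, with 4 tumors in each of these 4 groups. Genotype and flank change together within an experiment, there were no WT tumors in Experiment B, and the sources do not say which cultures were grown separately, so p-values measure only the spread between these libraries, which may be technical in part.

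KEAP1 is an adaptor of a ubiquitin ligase that holds the transcription factor NRF2 at a low level. When KEAP1 is lost, NRF2 accumulates and switches on genes of detoxification, glutathione synthesis and NADPH supply through antioxidant response elements, and in lung adenocarcinoma this happens by mutation of KEAP1. The rows described here were taken because their DKO means were at least 1 above WT, a threshold that a row which fell part of the way back from KEAP1-KO to WT can also meet, and whether any of them needs NRF2 was not tested.

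The Keap1 gene row stood at 9.45 in WT cells, 7.59 in KEAP1-KO cells and 7.35 in DKO cells, and at 8.88 in WT tumors against 7.37 to 7.46 in the edited groups. Nqo1, a quinone reductase and a standard NRF2 target, stood at 9.01, 12.45 and 6.77 in the 3 groups of cells and at 6.85, 12.41, 12.23 and 5.93 in WT, KEAP1-KO A, KEAP1-KO B and DKO tumors. Both genes thus followed the labels. The only symbol row of Nfe2l2 is a processed transcript that stood between 4.84 and 6.01 in all groups and does not check the second edit. By estimate from the deposited values, the rows of the table held between 4222372 and 7524277 reads per library (median 5619791), which is not the sequencing depth. Between 13.9% and 23.5% of rows had no reads. Tumors hold host cells: the summed normalized counts of the 16 leukocyte markers in the table ran from 8143 to 10024 in WT tumors, 2389 to 3108 in KEAP1-KO tumors A, 4032 to 4762 in KEAP1-KO tumors B and 6852 to 9602 in DKO tumors. In the 12 cell libraries that sum was between 32 and 170, and Adgre1, Cd3e, S100a9 and Tyrobp were at 0 in all of them. In bulk tissue, fewer cells of a type and less RNA per cell cannot be told apart. Summed fibroblast markers ran from 5069 to 13313 in WT tumors, 2097 to 5275 in KEAP1-KO A, 3192 to 4017 in KEAP1-KO B and 11050 to 15585 in DKO, and summed endothelial markers from 971 to 1552 in all tumors.

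The 48 members were mixed in kind. By the GENCODE vM21 annotation, 18 rows are whole genes (11 protein coding, 3 lincRNAs, 2 of class TEC, which marks loci without experimental proof, and 2 pseudogenes) and 30 are single transcripts (14 retained introns, 7 protein coding, 5 processed transcripts, 3 targets of nonsense-mediated decay and 1 antisense RNA). Retained introns made up 29.2% of the members and 22.6% of all symbol rows. For these rows a symbol names 1 transcript and not the output of the gene, and reads that several transcripts of a gene share were divided between them by estimation. Of the 30 transcripts, 6 (those of A630001G21Rik, Adam10, Map7d2, Mtpap, Wnt10a and Zfp979) consist entirely of sequence that other transcripts of the gene also hold in stretches of 25 bases. Those of Dst (2 of 4539 bases), Casp12 (9 of 2463) and Wnk1 (25 of 2934) hold almost none of their own. The median share of own bases was 14.8%.

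Across the members, the difference between KEAP1-KO and WT cells ran from 1.0 to 4.08 with a median of 1.92, and between DKO and WT cells from 1.02 to 4.01 with a median of 1.78. In tumors, KEAP1-KO A exceeded WT by 1.0 to 4.16 (median 1.76) and DKO B exceeded WT by 1.0 to 4.27 (median 1.65). The medians of all symbol rows in the same differences were between -0.05 and 0. By the mean of the 4 differences, Dtna (3.96), Map7d2 (3.93), Pax5 (2.85), Adam10 (2.76), Casp12 (2.71) and Esr1 (2.66) led the set, and Wnk1 (1.14) and Fbxo36 (1.18) closed it. Members nearest the threshold by their smallest difference were Fbxo36 (1.001), Wnk1 (1.002), Slc9a2 (1.004) and Ckb (1.023), while Serpinb9b (0.996), Nat9 (0.981), Gm15834 (0.973) and Cgnl1 (0.965) lay just outside. By level in KEAP1-KO cells, Wnk1 (5.087) and Ndor1 (5.149) were the lowest members, and Fam219a (4.877) and Adam3 (4.856) the highest rows left out. All 4 libraries of KEAP1-KO cells lay above all 4 of WT cells for 41 members, against 21.2% of the symbol rows with the same minimum level. The same held for 39 members in DKO cells (22.2% of such rows), 40 in KEAP1-KO tumors A (14.6%) and 41 in DKO tumors (13.7%), and the rule that chose the members used these contrasts.

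**Figure D1:**
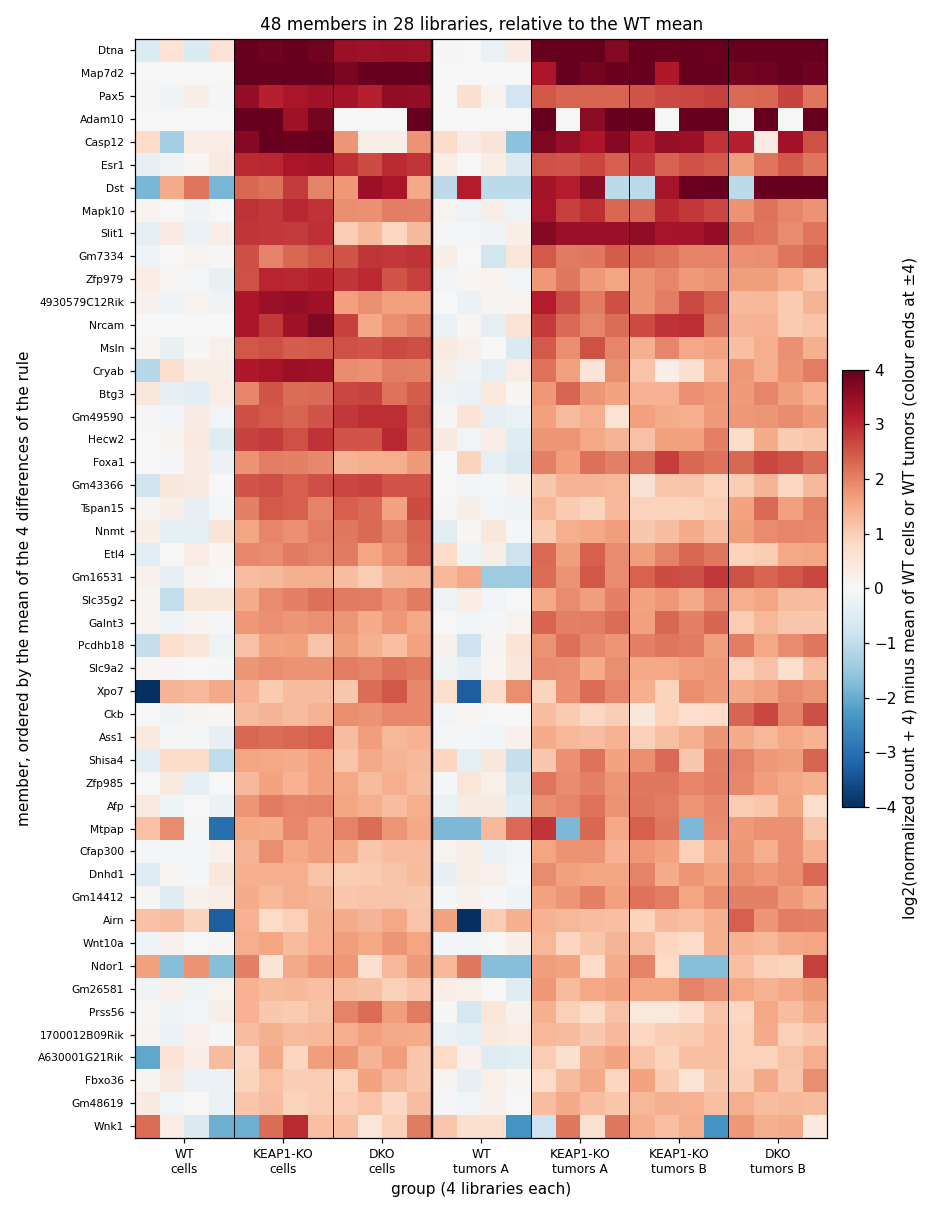
Heat map of the 48 members (rows, ordered by the mean of the 4 selecting differences) in 28 libraries (columns, 4 per group); colour is the log2(normalized count + 4) value minus the mean of WT cells for cells or of WT tumors for tumors, with colours ending at ±4. KEAP1-KO and DKO libraries are above WT in most rows, and 8 rows, among them Adam10, Dst and Mtpap, are uneven inside a group, where some libraries have no reads and others stand at 5 or more.

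Transcription factors formed 1 group of members. Pax5, the factor that fixes B cell identity, is a gene row (ENSMUSG00000014030) that stood at 3.83, 3.78, 4.18 and 3.88 in WT cells, at 7.44, 7.04, 7.17 and 7.28 in KEAP1-KO cells and at 7.26, 7.04, 7.45 and 7.42 in DKO cells. In tumors Pax5 read 4.51, 5.15, 4.64 and 3.74 in WT, 6.98, 6.83, 6.83 and 6.84 in KEAP1-KO A, 7.04, 7.14, 7.17 and 7.25 in KEAP1-KO B and 6.76, 6.8, 7.21 and 6.66 in DKO. No library of an edited group overlapped the WT libraries of its setting, and the summed leukocyte markers were 32 to 54 normalized counts in WT cells, 145 to 170 in KEAP1-KO cells and 54 to 72 in DKO cells. Cd68 (103 to 116) and Itgb2 (32 to 46) made up most of the sum in KEAP1-KO cells, and the other 14 markers summed to 5 to 14, 9 to 17 and 10 to 16 in WT, KEAP1-KO and DKO cells. No marker particular to B cells was among them, as Cd79a of the list had no row with a symbol. The part of B cells in the Pax5 values was not tested. Foxa1, a pioneer factor of endodermal and hormone-responsive epithelium, read 3.44, 3.39, 3.78 and 3.23 in WT cells, 5.26, 5.52, 5.48 and 5.38 in KEAP1-KO cells and 4.83, 4.87, 4.92 and 5.15 in DKO cells. Its tumor values were 3.09, 3.95, 2.75 and 2.51 in WT, 5.09, 4.76, 5.28 and 5.09 in KEAP1-KO A, 5.28, 5.83, 5.38 and 5.24 in KEAP1-KO B and 5.37, 5.74, 5.62 and 5.32 in DKO. The groups did not overlap with WT in either setting. Esr1, the gene of estrogen receptor alpha, was represented by a processed transcript (Esr1-210) that read 2.65, 2.86, 3.06 and 3.38 in WT cells, 5.97, 5.99, 6.26 and 6.31 in KEAP1-KO cells and 5.92, 5.59, 5.97 and 5.85 in DKO cells. In tumors it stood at 3.77 ± 0.41 (SD, n = 4) in WT, 6.3 ± 0.11 in KEAP1-KO A, 6.32 ± 0.2 in KEAP1-KO B and 5.88 ± 0.33 in DKO. Of the other Esr1 rows none reached a mean of 4 in KEAP1-KO cells. Zfp979 and Zfp985, zinc finger genes that neighbour each other on chromosome 4, exceeded WT by 2.93, 2.78, 1.79 and 1.48 and by 1.49, 1.38, 1.95 and 1.63, in the order of KEAP1-KO cells, DKO cells, KEAP1-KO tumors A and DKO tumors. Btg3, an antiproliferative gene, differed by 2.25, 2.49, 1.85 and 1.68 in the same order.

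Promoters are shown for Pax5 and Foxa1 because these are gene rows whose protein acts on DNA, and for Casp12 because its row starts at the listed start site and its window holds an antioxidant response element core. The windows are RefSeq sequences on build GRCm38.p6, 250 bases before to 50 after a gene's start, and 29 of the 48 members were matched to one by symbol. For 18 of those the listed start lay within 1000 bases of the start of the member's row. Capitals mark matches, on either strand, to TGACNNNGC (antioxidant response element core), TGANTCA (AP-1), AGGTCA (core of an estrogen response element arm) or TGTTTAC (forkhead). The arm read on the other strand, TGACCT, can share bases with the first 2 patterns, and these can share bases with each other.
Pax5, chr4:44710645-44710944, minus strand: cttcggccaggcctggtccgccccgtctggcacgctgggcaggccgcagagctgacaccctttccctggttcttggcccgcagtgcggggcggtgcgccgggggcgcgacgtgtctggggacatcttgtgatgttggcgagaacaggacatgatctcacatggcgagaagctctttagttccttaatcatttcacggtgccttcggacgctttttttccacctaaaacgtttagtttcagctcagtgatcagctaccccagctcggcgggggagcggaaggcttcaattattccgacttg
Foxa1, chr12:57546062-57546361, minus strand: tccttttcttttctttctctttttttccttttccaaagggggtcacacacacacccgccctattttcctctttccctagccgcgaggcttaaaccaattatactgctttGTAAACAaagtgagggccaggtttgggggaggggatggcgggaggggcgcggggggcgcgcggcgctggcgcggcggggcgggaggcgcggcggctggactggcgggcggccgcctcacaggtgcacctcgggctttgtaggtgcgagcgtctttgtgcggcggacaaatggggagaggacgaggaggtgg
Casp12, chr9:5345226-5345525, plus strand: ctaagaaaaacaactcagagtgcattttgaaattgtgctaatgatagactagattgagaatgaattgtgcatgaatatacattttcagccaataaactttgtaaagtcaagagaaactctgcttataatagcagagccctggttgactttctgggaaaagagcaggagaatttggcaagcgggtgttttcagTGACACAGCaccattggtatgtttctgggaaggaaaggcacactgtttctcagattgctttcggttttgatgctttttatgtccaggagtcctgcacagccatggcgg
The Foxa1 window holds a forkhead match read on the opposite strand, GTAAACA, the Casp12 window holds TGACACAGC, and the Pax5 window holds no match to the 4 patterns. The antioxidant response element core was found in 2 of the 29 member promoters (6.9%, Casp12 and Hecw2) and in 12.4% of all 32851 promoters. AP-1 matches were in 2 (6.9%, against 7.8% of all), estrogen element arms in 4 (13.8% against 16.3%) and forkhead matches in 1 (3.4% against 3.6%). The median member window held 18 CpG dinucleotides, where the median of all windows was 7. The 32851 promoters were held to no minimum level, unlike the members, so nothing is read from these comparisons. A match is a description of letters and not of binding.

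Genes of axon guidance, adhesion and signalling made up another group. Slit1, a secreted ligand of ROBO receptors, was measured as a retained-intron transcript of 516 bases (Slit1-204). It read 4.05, 4.74, 4.18 and 4.67 in WT cells, 7.28, 7.24, 7.21 and 7.34 in KEAP1-KO cells and 5.4, 5.71, 5.23 and 5.72 in DKO cells. In tumors it read 6.42, 6.42, 6.34 and 6.73 in WT, 10.14, 9.93, 9.9 and 9.9 in KEAP1-KO A, 10.03, 9.77, 9.8 and 9.98 in KEAP1-KO B and 8.73, 8.63, 8.36 and 8.62 in DKO. DKO libraries lay between WT and KEAP1-KO in both settings, without overlap with either. Nrcam, a neuronal adhesion molecule, was also a retained-intron row (Nrcam-210) and was at 0 in all 4 WT cell libraries, while KEAP1-KO cells read 5.23, 4.83, 5.38 and 5.71 and DKO cells 4.73, 3.51, 3.86 and 4.0. Against a floor of 3 reads over the 4 WT libraries, its level in KEAP1-KO cells was at least 44.9-fold higher by the estimated reads of this transcript, of whose 3159 bases 489 are in no other transcript of the gene. Nrcam in tumors read 3.36, 3.65, 3.25 and 4.2 in WT, 6.41, 5.87, 5.57 and 5.85 in KEAP1-KO A, 6.21, 6.52, 6.56 and 5.75 in KEAP1-KO B and 4.97, 4.99, 4.65 and 4.76 in DKO. The intron bases that set these rows apart from spliced RNA are the smaller part of both. Of the 516 bases of Slit1-204, 73 are in no other transcript of the gene, so reads of shared bases also enter. Intron bases of both are given from the GENCODE vM21 transcripts (GRCm38), with the acceptor AG of the intron in capitals.
Slit1-204, chr19:41608456-41608530, minus strand, bases 1 to 75 of exon 1: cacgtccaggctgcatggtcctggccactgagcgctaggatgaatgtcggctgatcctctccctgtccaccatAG
Nrcam-210, chr12:44545259-44545378, plus strand, the last 120 bases of the intron inside exon 8: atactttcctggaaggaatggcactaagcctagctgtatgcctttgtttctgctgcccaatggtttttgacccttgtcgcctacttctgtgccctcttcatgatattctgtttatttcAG
A row of this kind can follow unspliced RNA, a distinct transcript or, through shared bases, spliced RNA of the gene, which was not tested.

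Mapk10, the gene row of the neuronal JNK kinase JNK3, read 5.12, 4.95, 4.85 and 5.0 in WT cells, 7.88, 7.81, 7.99 and 7.86 in KEAP1-KO cells and 6.83, 6.8, 7.03 and 7.0 in DKO cells. Its tumor values were 3.79, 3.42, 3.9 and 3.43 in WT, 6.92, 6.37, 6.58 and 5.92 in KEAP1-KO A, 5.95, 6.64, 6.46 and 6.3 in KEAP1-KO B and 5.44, 5.82, 5.6 and 5.43 in DKO. DKO libraries were again intermediate in both settings. Map7d2, a microtubule-associated protein gene measured as a coding transcript, was at 0 in all WT cells and all WT tumors, and read 6.03, 6.01, 6.01 and 6.13 in KEAP1-KO cells and 5.78, 5.97, 6.02 and 6.27 in DKO cells. In tumors it read 5.22, 6.03, 5.84 and 5.92 in KEAP1-KO A, 6.0, 5.19, 6.0 and 6.32 in KEAP1-KO B and 5.82, 5.85, 6.03 and 5.89 in DKO. This transcript, Map7d2-204, is one of the 6 without sequence of its own, so that its 0 in WT rests on how shared reads were divided, and no fold is given. Dtna, which encodes dystrobrevin alpha of the dystrophin complex, was a processed transcript that read 2.65, 3.78, 2.62 and 3.77 in WT cells, 7.46, 7.09, 7.23 and 7.07 in KEAP1-KO cells and 6.63, 6.61, 6.62 and 6.59 in DKO cells. Dtna in tumors stood at 2.57 ± 0.24 (SD, n = 4) in WT, 6.73 ± 0.34 in KEAP1-KO A, 6.58 ± 0.07 in KEAP1-KO B and 6.84 ± 0.19 in DKO. Msln, the surface protein mesothelin, was a retained-intron row with means of 5.15, 7.62 and 7.72 in WT, KEAP1-KO and DKO cells, and 5.82, 8.03, 7.45 and 7.29 in WT, KEAP1-KO A, KEAP1-KO B and DKO tumors. Wnt10a, a Wnt ligand, differed from WT by 1.45, 1.64, 1.17 and 1.45 in the 4 selecting differences. Tspan15, a tetraspanin, read 3.83, 3.99, 3.39 and 3.65 in WT cells, 5.73, 6.17, 6.09 and 5.71 in KEAP1-KO cells and 6.1, 5.97, 5.31 and 6.31 in DKO cells. Tspan15 in tumors read 4.46, 4.64, 4.29 and 4.27 in WT, 5.73, 5.47, 5.31 and 5.72 in KEAP1-KO A, 5.35, 5.33, 5.3 and 5.44 in KEAP1-KO B and 6.01, 6.67, 6.05 and 6.41 in DKO. Here the edited groups lay above WT in both settings, and DKO overlapped KEAP1-KO in cells and lay above it in tumors. Pcdhb18, a clustered protocadherin, differed by 1.39, 1.47, 1.92 and 1.9 and Etl4 by 1.96, 1.94, 2.05 and 1.27.

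Enzymes and transporters included Ass1, argininosuccinate synthase of arginine synthesis, as a retained-intron row (Ass1-202). Ass1 read 6.29, 5.86, 5.86 and 5.58 in WT cells, 8.18, 8.13, 8.18 and 8.28 in KEAP1-KO cells and 7.13, 7.57, 7.24 and 7.29 in DKO cells. In tumors it read 9.55, 9.54, 9.49 and 9.79 in WT, 11.08, 10.91, 10.84 and 10.99 in KEAP1-KO A, 10.55, 10.8, 11.01 and 11.36 in KEAP1-KO B and 11.08, 10.91, 11.14 and 10.99 in DKO. The edited groups were above WT throughout, with DKO between WT and KEAP1-KO in cells and overlapping KEAP1-KO in tumors. Ckb, brain-type creatine kinase and again a retained-intron row (Ckb-204), read 7.11, 6.96, 7.21 and 7.16 in WT cells, 8.39, 8.47, 8.38 and 8.49 in KEAP1-KO cells and 8.97, 8.9, 9.03 and 9.04 in DKO cells. Ckb in tumors read 6.31, 6.49, 6.43 and 6.4 in WT, 7.65, 7.44, 7.23 and 7.4 in KEAP1-KO A, 6.87, 7.34, 7.12 and 7.17 in KEAP1-KO B and 8.73, 9.09, 8.38 and 9.0 in DKO. Here DKO was the highest group in both settings. Slc9a2, a sodium-proton exchanger, was a retained-intron row that read 8.21, 8.19, 8.11 and 8.05 in WT cells, 9.89, 10, 9.93 and 9.95 in KEAP1-KO cells and 10.19, 10.11, 10.3 and 10.21 in DKO cells. Its tumor values were 9.43, 9.27, 9.69 and 10.06 in WT, 11.51, 11.46, 11.1 and 11.48 in KEAP1-KO A, 11.13, 11.15, 11.27 and 11.36 in KEAP1-KO B and 10.53, 10.78, 10.3 and 10.85 in DKO. The DKO libraries were thus the highest in cells and lay between WT and KEAP1-KO in tumors. Galnt3, an enzyme that starts O-linked glycosylation, was a processed transcript that read 6.98, 6.63, 6.93 and 6.78 in WT cells, 8.55, 8.65, 8.61 and 8.65 in KEAP1-KO cells and 8.59, 8.3, 8.55 and 8.34 in DKO cells. Galnt3 in tumors read 7.25, 7.1, 7.19 and 7.36 in WT, 9.54, 9.23, 9.26 and 9.45 in KEAP1-KO A, 8.88, 9.51, 9.23 and 9.54 in KEAP1-KO B and 8.23, 8.56, 8.34 and 8.31 in DKO. DKO overlapped KEAP1-KO in cells and lay below it in tumors. Nnmt, nicotinamide N-methyltransferase, differed from WT by 1.85, 2.17, 1.43 and 1.87, and Slc35g2, a member of a transporter family, by 1.89, 2, 1.77 and 1.39. The row listed as Ndor1 has another name in vM21, AL732309.1, and of the other two rows listed as Ndor1 one had differences of 0.27, 0.41, 0.09 and 0.29 at a KEAP1-KO cell mean of 5.98, and one had 0.14, -0.49, 0.02 and -0.45 at 2.81.

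Among genes of cell stress and death, Casp12, a caspase of the inflammatory caspase cluster, was a transcript marked for nonsense-mediated decay (Casp12-205). Only 9 of its 2463 bases are in no other transcript of the gene, so its values rest on how shared reads were divided. It read 4.14, 2, 3.66 and 3.65 in WT cells, 6.99, 7.56, 7.27 and 7.46 in KEAP1-KO cells and 5.14, 3.63, 3.63 and 5.15 in DKO cells. In tumors Casp12 read 4.4, 3.95, 4.15 and 2 in WT, 7.37, 7.11, 6.85 and 7.27 in KEAP1-KO A, 6.72, 7.1, 7.05 and 6.53 in KEAP1-KO B and 6.74, 3.94, 6.98 and 6.17 in DKO. DKO cells overlapped WT cells, and 1 DKO tumor lay in the WT range while the other 3 lay near the KEAP1-KO tumors. Without the WT cell library at 2, the difference between DKO and WT cells was 0.57 in place of 1.02, and without DKO cell library 1 or 4 it was 0.77, so that Casp12 met the rule only with all of these libraries. Its neighbour Casp4 differed from WT by 2.64 in KEAP1-KO cells, 0.22 in DKO cells, 1.59 in KEAP1-KO tumors A and 0.85 in DKO tumors, and is not a member. Cryab, the small heat shock protein alpha B crystallin, was a coding transcript (Cryab-202) that read 2, 3.78, 3.39 and 3.38 in WT cells, 6.34, 6.44, 6.55 and 6.52 in KEAP1-KO cells and 5.02, 4.97, 5.19 and 5.15 in DKO cells. Cryab in tumors read 4.13, 3.76, 3.5 and 4.2 in WT, 6.07, 5.55, 4.42 and 5.75 in KEAP1-KO A, 5.04, 4.17, 4.54 and 5.29 in KEAP1-KO B and 5.64, 5.36, 5.69 and 5.95 in DKO, and KEAP1-KO B overlapped WT. Cryab is also made in skeletal muscle, whose 9 markers in the table summed to 16 to 42 normalized counts in cells, 31 to 37 in WT tumors, 20 to 51 in KEAP1-KO A, 28 to 78 in KEAP1-KO B and 38 to 502 in DKO tumors.

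Secreted and tissue-restricted products were Afp, the fetal serum protein alpha-fetoprotein, and Prss56, a secreted serine protease. Afp, a retained-intron row (Afp-205), read 7.33, 6.78, 6.96 and 6.73 in WT cells, 8.72, 9.04, 8.9 and 8.95 in KEAP1-KO cells and 8.52, 8.39, 8.17 and 8.39 in DKO cells. In tumors Afp read 4.13, 4.75, 4.75 and 3.91 in WT, 6.25, 6.33, 6.55 and 6.19 in KEAP1-KO A, 6.54, 6.42, 6.15 and 6.3 in KEAP1-KO B and 5.4, 5.5, 5.96 and 5.08 in DKO. Each edited group lay above WT and each tumor group lay below its cell group. Prss56, a gene row, read 4.14, 3.89, 3.99 and 4.33 in WT cells, 5.49, 5.15, 5.13 and 5.25 in KEAP1-KO cells and 6.08, 6.33, 5.76 and 6.18 in DKO cells. In tumors Prss56 read 3.7, 2.97, 4.15 and 3.83 in WT, 5.09, 4.63, 4.42 and 4.82 in KEAP1-KO A, 4.08, 4.09, 4.34 and 4.79 in KEAP1-KO B and 4.5, 5.21, 4.9 and 5.19 in DKO. Its 3 groups of cells did not overlap, and its KEAP1-KO tumors B overlapped WT. Genes of ubiquitin ligation were Hecw2, a HECT ligase with differences of 2.73, 2.62, 1.61 and 1.1, and Fbxo36, an F-box gene with 1.0, 1.23, 1.1 and 1.37. Cfap300, a gene of ciliary motility, differed by 1.61, 1.27, 1.64 and 1.61, and Dnhd1, a dynein heavy chain relative, by 1.37, 1.12, 1.67 and 1.93. Shisa4 differed by 1.56, 1.32, 1.67 and 1.93, 1700012B09Rik by 1.31, 1.52, 1.25 and 1.11 and the predicted coding gene Gm14412 by 1.41, 1.11, 1.76 and 1.8.

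Gene rows annotated as noncoding were the lincRNAs 4930579C12Rik, Gm26581 and Gm48619, the pseudogenes Gm7334 and Gm16531, and Gm43366 and Gm49590 of class TEC. 4930579C12Rik read 2.65, 2.34, 2.62 and 2.34 in WT cells, 5.73, 5.95, 6.01 and 5.87 in KEAP1-KO cells and 4.14, 4.3, 4.14 and 4.14 in DKO cells. In tumors it read 5.15, 4.89, 5.24 and 5.28 in WT, 8.27, 7.73, 7.21 and 7.72 in KEAP1-KO A, 6.94, 7.19, 7.78 and 7.5 in KEAP1-KO B and 6.43, 6.48, 6.19 and 6.51 in DKO. DKO was intermediate without overlap in both settings. The other 6 differed from WT by 1.06 to 2.81 in the 4 selecting differences, and the pseudogene Gm7334 was the only 1 of them at 2 or more in all 4 (2.34, 2.77, 2.26 and 2.04). Reads of a pseudogene may be shared with its parent gene.

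Libraries at 0 made 8 members uneven within a group. In A630001G21Rik, Adam10, Airn, Dst, Mtpap, Ndor1, Wnk1 and Xpo7, at least 1 group held a library at 2 beside a library at 5 or more, and 7 of these 8 rows are single transcripts. Adam10, a sheddase of Notch and other surface proteins, was at 0 in all 8 WT libraries and read 6.05, 7.07, 5.38 and 5.83 in KEAP1-KO cells, 2, 2, 2 and 7.05 in DKO cells, 6.49, 2, 5.6 and 7.01 in KEAP1-KO tumors A, 6.8, 2, 6.38 and 6.69 in KEAP1-KO tumors B and 2, 6.36, 2 and 7.35 in DKO tumors. Its DKO cells therefore passed the rule on 1 library of 4. Xpo7, a nuclear transport receptor, read 2, 7.49, 7.43 and 7.65 in WT cells and 7.53, 7.19, 7.42 and 7.4 in KEAP1-KO cells, so its difference of 1.24 rested on the first WT library and was -0.14 without it. In tumors, its DKO difference of 1.70 was 0.61 without WT tumor 2. Airn, the RNA antisense to Igf2r at an imprinted locus, read 6.47, 6.53, 6.2 and 2 in WT cells and 7.62, 2, 7.04 and 7.44 in WT tumors against 6.69, 6.08, 6.26 and 6.73 in KEAP1-KO cells, so that its differences for KEAP1-KO likewise rested on 1 WT library in each setting. Dst, which encodes the linker protein dystonin, Mtpap, the mitochondrial poly(A) polymerase, and the kinase gene Wnk1 had such libraries in 5, 4 and 4 of the 7 groups. Without WT tumor 4 the difference of Wnk1 between KEAP1-KO tumors A and WT was 0.21 in place of 1.0, and without WT cells 4 its difference in KEAP1-KO cells was 0.47 in place of 1.12. The KEAP1-KO cell difference was 0.64 in place of 1.65 for Mtpap without WT cells 4, and 0.52 in place of 1.21 for A630001G21Rik without WT cells 1. The DKO cell difference of Ndor1 was 0.78 in place of 1.35 without WT cells 2 or 4. Of these 8 members, Dst alone met the rule with any 1 library left out.

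**Figure D2:**
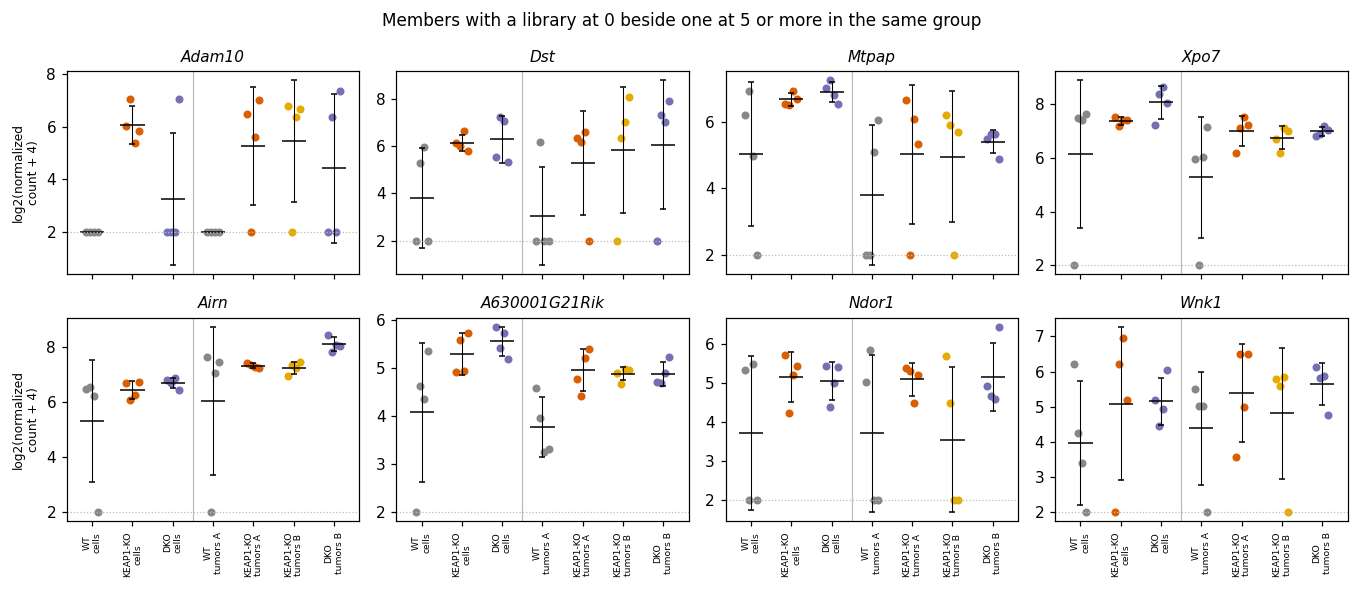
Values of the 8 members with a library at 0 (2 on the log2(normalized count + 4) axis, dotted line) beside one at 5 or more in the same group; points are libraries, lines are means and bars SD of 4. Between 1 and 3 of the 4 libraries lie on the dotted line in the groups that hold both kinds, with 3 in DKO cells for Adam10 and in WT tumors for Dst.

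KEAP1-KO tumors of Experiment B are the only group that the rule did not use, and they grew in the same experiment as the DKO tumors, on the other flank. Of the 48 members, 41 (85.4%) stood 1 or more above WT tumors in this group, against 3.79% of the 6910 symbol rows with a mean of 5 or more in KEAP1-KO cells, and all 4 tumors lay above all 4 WT tumors for 39 members (16.5% of those rows). The median difference was 1.70 and the range -0.17 to 4.01. Since the WT tumors entered the rule, this is a description and not an independent test. Members under 1 were Gm43366 (0.94), Tspan15 (0.95), Cryab (0.86), Ckb (0.72), Prss56 (0.67), Wnk1 (0.42) and the Ndor1 row (-0.17), which read 5.7, 4.5, 2 and 2 in KEAP1-KO tumors B and 5.03, 5.84, 2 and 2 in WT tumors. Between KEAP1-KO tumors B and A, limma with Benjamini-Hochberg adjustment called none (0) of the 48 members (background 0.164% of 34215 rows), and 4 had an unadjusted p under 0.05. No other tool was run. The nearest was Msln, lower by 0.57 in B (SE 0.21, adjusted p = 0.50). In all 5 contrasts with WT, 37 members showed no overlap, 16 of them gene rows. The 11 others were the 8 with libraries at 0, Casp12, Cryab and Prss56. The rule used 4 of these 5 contrasts and the share of all rows for the 5 together was not computed, so nothing is read from this count.

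**Figure D3:**
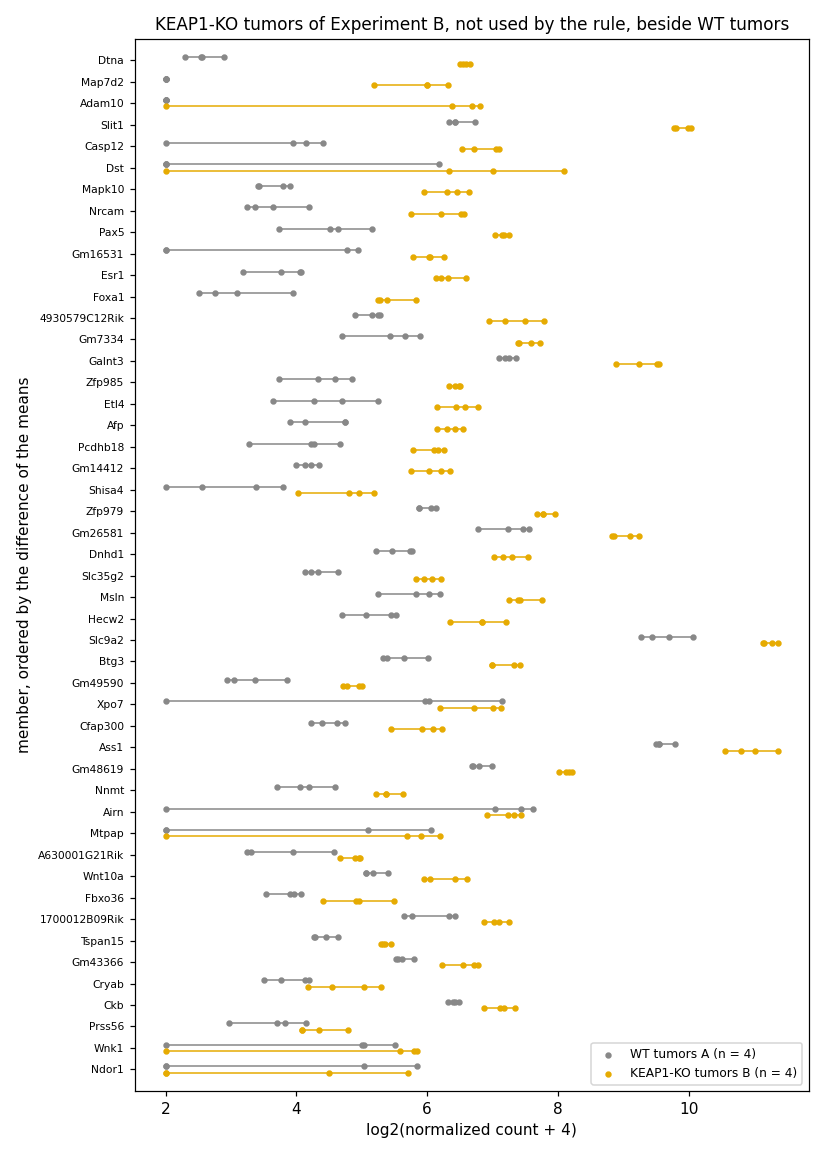
Values of the 48 members in the 4 WT tumors of Experiment A (grey) and the 4 KEAP1-KO tumors of Experiment B (yellow), on the log2(normalized count + 4) axis, with lines from the lowest to the highest tumor and members ordered by the difference of means. In 39 members the yellow points lie wholly to the right of the grey ones.

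The step from KEAP1-KO to DKO is not a difference that the rule used, although the rule held both groups at 1 or more above WT and so limited how far a member could fall. In cells, limma called 11 of the 48 members, 3 higher and 8 lower in DKO, where 8.83% of all 29744 rows were called (3.98% higher, 4.85% lower). Among symbol rows with the same minimum level the share was 24.0%, so the members' 22.9% was near that background. The median difference was -0.03, equal to that of all rows. For comparison, 18 of the 19 tested NRF2 targets of a fixed list were lower in DKO cells, with a median of -1.95. In tumors of Experiment B, 9 members were called, 2 higher and 7 lower in DKO (background 8.86%, 4.22% higher and 4.64% lower). The members' 18.8% again lay near the 19.8% of symbol rows of that level, and the median was 0.01. In the same tumors 16 of 19 NRF2 targets were lower (median -2.23), 12 of 15 leukocyte markers, 13 of 15 interferon-stimulated genes and 3 of 10 fibroblast markers were higher, and the part of host cells in the members' values was not tested.

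**Figure D4:**
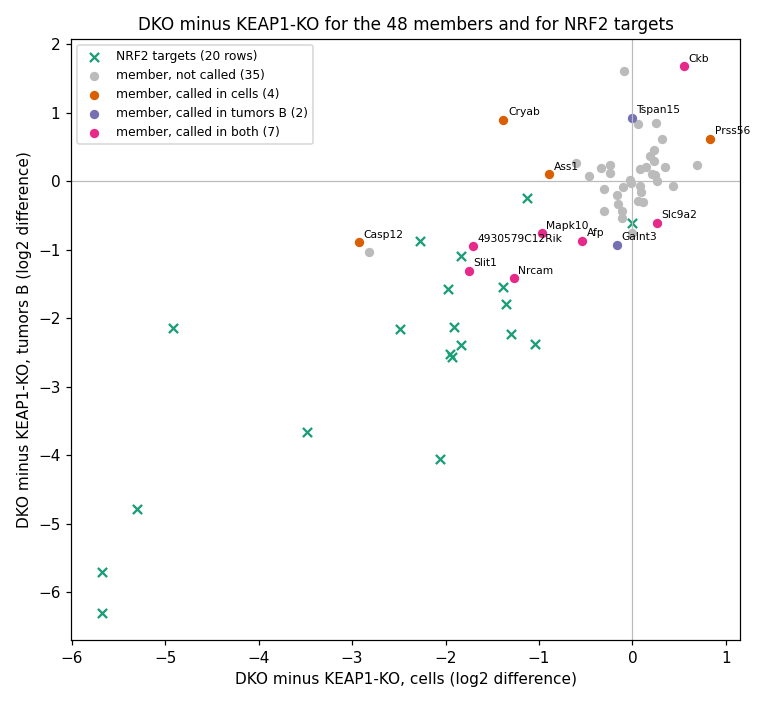
Difference DKO minus KEAP1-KO in cells (x axis) and in tumors of Experiment B (y axis), log2 scale, for the 48 members (circles, coloured by whether limma called them) and the 20 rows of NRF2 targets (crosses). Of the members, 26 lie within 0.5 of 0 on both axes and 22 lie beyond on 1 axis or both, while the crosses run to -5.68 in cells and -6.30 in tumors, a fall that the rule did not allow to the members.

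Members that fell in DKO in both settings were Slit1, 4930579C12Rik, Nrcam, Mapk10 and Afp. Slit1 was lower by 1.75 in cells (SE 0.17, adjusted p = 2.7e-05) and by 1.31 in tumors (SE 0.10, adjusted p = 6.7e-07). 4930579C12Rik fell by 1.71 in cells (SE 0.17, adjusted p = 2.5e-05) and by 0.95 in tumors (SE 0.20, adjusted p = 0.0064). Nrcam decreased by 1.27 (SE 0.28, adjusted p = 0.011) and by 1.42 (SE 0.24, adjusted p = 0.0011). Mapk10 fell by 0.97 in cells (SE 0.09, adjusted p = 1.9e-05) and by 0.76 in tumors (SE 0.21, adjusted p = 0.031), the latter call being lost without any 1 of KEAP1-KO tumors B 2, 3 and 4 or DKO tumors 1, 3 and 4, with differences of -0.66 to -0.78. Afp fell by 0.54 in cells (SE 0.13, adjusted p = 0.019) and by 0.87 in tumors (SE 0.21, adjusted p = 0.015). The first was lost without a variance trend, and without KEAP1-KO cells 2 (-0.49) or 4 (-0.52) or DKO cells 3 (-0.47), and the second without DKO tumor 4 (-0.73). The rule had fixed that DKO exceeded WT for these 5 as for every member.

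Ckb was the only member called higher in DKO in both settings, by 0.55 in cells (SE 0.07, adjusted p = 0.00013) and by 1.68 in tumors (SE 0.14, adjusted p = 1.9e-06). Called in cells alone were Casp12, lower by 2.93 (SE 0.47, adjusted p = 0.0015), Cryab, lower by 1.38 (SE 0.30, adjusted p = 0.012), Ass1, lower by 0.89 (SE 0.14, adjusted p = 0.0010), and Prss56, higher by 0.83 (SE 0.16, adjusted p = 0.0059). The Cryab call was lost with a pseudocount of 1 (difference -1.47, adjusted p = 0.17). Called in tumors alone were Galnt3, lower by 0.93 (SE 0.13, adjusted p = 0.00019), and Tspan15, higher by 0.93 (SE 0.16, adjusted p = 0.0015). Slc9a2 was called in opposite directions, higher by 0.26 in DKO cells (SE 0.05, adjusted p = 0.0082) and lower by 0.61 in DKO tumors (SE 0.15, adjusted p = 0.020). Its call in cells was lost without a variance trend (adjusted p = 0.11). Its tumor call was lost without a variance trend, without KEAP1-KO tumors B 3 (-0.59) or 4 (-0.56) or DKO tumors 1 (-0.58) or 3 (-0.50), and with quantile normalization (-0.48).

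**Figure D5:**
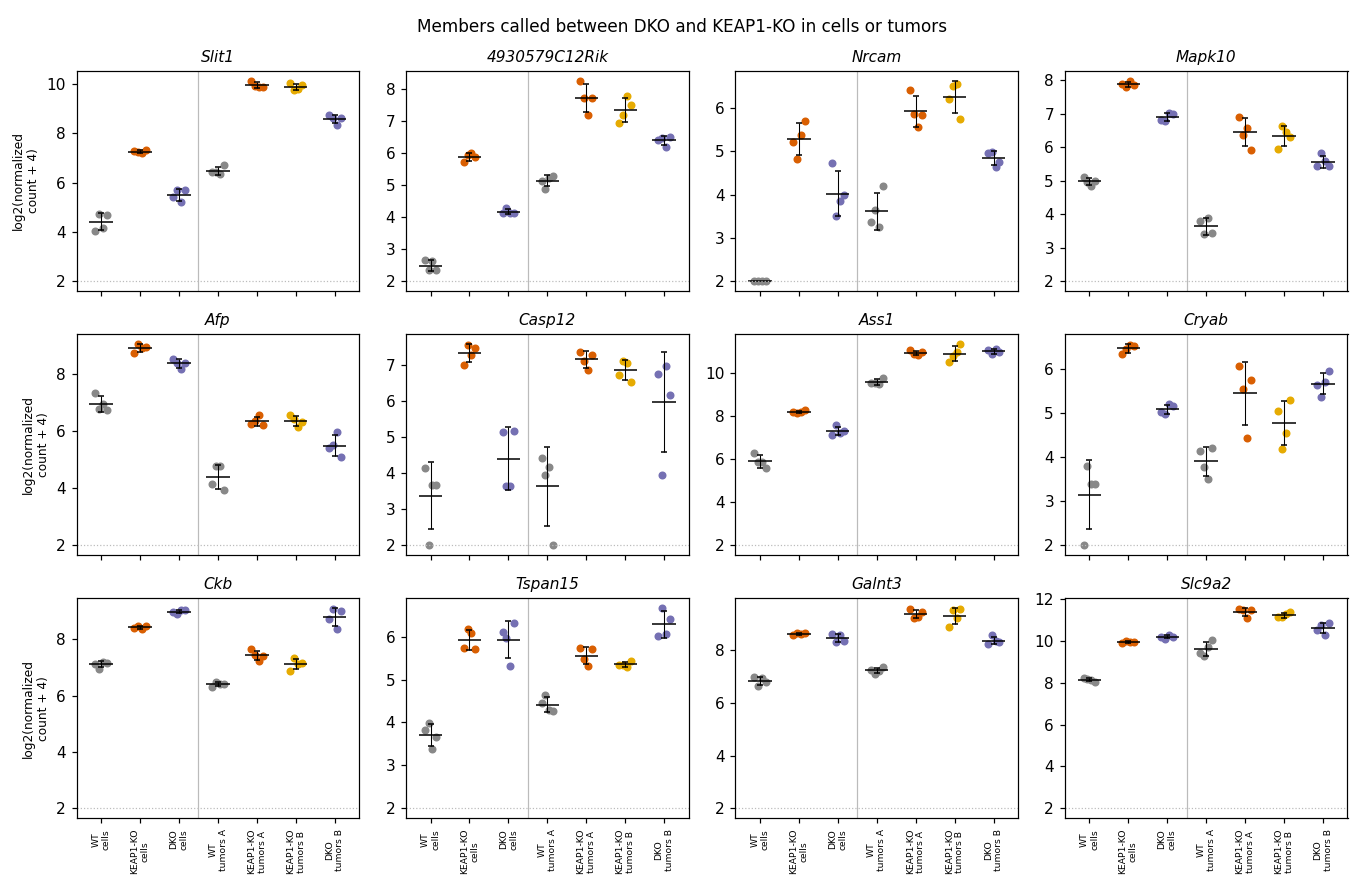
Values of 12 members called between DKO and KEAP1-KO in cells or tumors, by group, on the log2(normalized count + 4) axis (2 is no reads); points are libraries, lines are means and bars SD of 4. Slit1, 4930579C12Rik, Nrcam, Mapk10 and Afp are intermediate in DKO, and Ckb is highest in DKO in both cells and tumors.

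Whether the DKO effect itself differed between tumors and cells was tested in all 28 libraries, a test added after Slc9a2 had been seen. It called 5 members (3.67% of 37246 rows were called): Cryab (difference of effects 2.29, SE 0.46, adjusted p = 0.0031), Ckb (1.12, SE 0.17, adjusted p = 0.00013), Ass1 (0.98, SE 0.19, adjusted p = 0.0025), Slc9a2 (-0.87, SE 0.18, adjusted p = 0.0039) and Galnt3 (-0.76, SE 0.16, adjusted p = 0.0064). Cryab and Ass1 fell in DKO cells but stood at 0.90 and 0.10 above KEAP1-KO in tumors, neither called there. For Casp12, Prss56 and Tspan15, called in 1 setting only, the difference between settings did not pass (adjusted p = 0.20, 0.85 and 0.051). The share called among symbol rows with the same minimum level was not computed for this test, so nothing is read from the count of 5. In the DKO tumors 3 of 5 tested skeletal muscle markers were higher than in KEAP1-KO tumors B, and their part in the values of Cryab and Ckb was not tested.

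Members were also compared between tumors and cells of the same genotype. The rule did not use this difference itself, but it asked for a mean of 5 in KEAP1-KO cells and for no level in tumors, which favours values lower in tumors, so the counts are descriptions. In KEAP1-KO, 26 members were called between tumors B and cells (background 38.8%), 10 higher (23.9%) and 16 lower (14.9%) in tumors, where symbol rows with the same minimum level had 23.5% higher and 50.8% lower. In DKO, 23 were called (43.5%), 10 higher (27.6%) and 13 lower (15.9%), against 25.5% higher and 51.1% lower at that level. The members' 54.2% and 47.9% lay above these shares of all rows and below the 74.3% and 76.6% of symbol rows with the same minimum level, so nothing is read from the counts about the members as a set. All rows had medians of 0.17 and 0.23 in these differences, and with libraries centred on their medians the splits were 8 higher and 20 lower in KEAP1-KO, and 6 higher and 21 lower in DKO. Ass1 and Slit1 were much higher in tumors: Ass1 by 2.74 in KEAP1-KO (SE 0.14, adjusted p = 1.8e-14) and by 3.72 in DKO (SE 0.14, adjusted p = 2.2e-17), and Slit1 by 2.63 (SE 0.14, adjusted p = 4.1e-14) and 3.07 (SE 0.14, adjusted p = 9.9e-16). WT tumors also exceeded WT cells for both, at 9.59 against 5.90 and 6.48 against 4.41. 4930579C12Rik was higher by 1.46 and 2.22, and Gm48619 by 1.48 in each genotype. Afp was lower in tumors by 2.55 (SE 0.18, adjusted p = 1.4e-11) and by 2.88 (SE 0.18, adjusted p = 8.3e-13). Nnmt fell by 1.74 and by 1.45, Mapk10 by 1.55 and by 1.34, and Zfp979 by 1.10 and by 1.29. The KEAP1-KO and DKO differences given here for Ass1, Slit1, 4930579C12Rik, Gm48619, Afp, Nnmt, Mapk10 and Zfp979 held their direction and call in the alternatives tried, and WT tumors were not tested against WT cells. Leukocyte, endothelial and fibroblast markers were higher in the same tumors (15 of 15, 9 of 9 and 9 of 10 in KEAP1-KO), and the part of host cells in these differences was not tested.

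Other rows of the same genes were looked at because most members are single transcripts. Matched by the gene that vM21 gives them, 62 further rows belong to 23 members, and 28 of these, from 9 genes, reached a mean of 4 in KEAP1-KO cells. The rows listed as Ndor1 belong to another gene in vM21 than the member and are not counted. All 4 differences were above 0 in 16 of the 28 (57.1%), against 19% of all such rows. Transcripts of Dst (10 rows, 7 of them above 0) and Wnk1 (9 rows, 3 of them) made up most of the 28 and share sequence, and without these genes 6 of 9 rows were above 0. Both Galnt3-204 and Msln-204 reached 1 in all 4. Casp12-202 had means of 2.26, 4.32 and 2.63 in WT, KEAP1-KO and DKO cells, and Casp12-203, which did not reach that level, had 2.09, 3.65 and 2.15. In DKO they exceeded WT by 0.37 and 0.07 in cells and by 2.09 and 2.19 in tumors. The median of the 28 rows was 0.25, 0.35, 0.44 and 0.21 in the 4 selecting differences, well under the members' own. The row of a single transcript therefore does not give the gene's total. For Wnk1 and Xpo7, Wnk1-206 stood at 8.48 in WT and 8.66 in KEAP1-KO cells, and Xpo7-205 at 6.11 and 6.17. Of the 3 such rows of Mtpap, 0 were above 0 in all 4 differences.

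The members lay on 15 chromosomes. Chromosomes 1 and 9 held 8 each (16.7% of the members, against 6.7% and 5.7% of symbol rows), and chromosomes 3, 8, 11, 13 and 15 held 0. Rows of chromosome 1 with the same minimum level had medians of 0.25 and 0.24 in KEAP1-KO and DKO cells and 0.19 and 0.21 in KEAP1-KO A and DKO tumors, while those of chromosome 9 had 0.09, 0.07, 0.07 and 0.01, near 0. Chromosome 18 held 3 members (6.2% against 2.5% of symbol rows), and its rows had medians of 0.12, 0.40, 0.16 and 0.24, the second of which was the highest of any chromosome in DKO cells. Chromosome 12 held 4 (8.3% against 3.9%), with medians of 0.13, 0.13, 0.07 and 0.06. Of the chromosomes without members, chromosome 11 had medians of 0.18, 0.12, 0.07 and 0.02, and chromosome 13 had -0.31, -0.22, -0.30 and -0.33. A shift of whole chromosomes in the clones was not tested here. Btg3 and Gm49590 overlap on chromosome 16 on the same strand, so that their reads may not be separable. Zfp985 and Zfp979 lie 26.7 kb apart on chromosome 4, and their neighbour Gm8178 exceeded WT by 1.47, 1.45, 1.18 and 1.03 at a KEAP1-KO cell mean of 3.83. Gm26581 and Gm16531 lie 197.3 kb apart on chromosome 10, and Gm10825 between them just missed the rule (1.05, 0.93, 1.49 and 1.72). Fbxo36 and A630001G21Rik lie 816.6 kb apart on chromosome 1. Among the 34 nearest neighbours of members with a KEAP1-KO cell mean of 5 or more, 13 (38.2%) were above WT in all 4 differences, against 20.8% of the 6910 symbol rows of that level.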

How the data were processed

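RNA of cultured 3LL cells and of subcutaneous 3LL tumors was sequenced after ribosomal RNA depletion with a directional kit. Per the study's methods and the submitters' processing notes, reads were quantified with Salmon on GENCODE (version 35 is stated) and processed in iDEP. The genome build is not given in the sources used here. The values that the authors deposited are log2 values, log2(normalized count + 4), in 1 table of 34021 transcript rows and 9122 gene rows, although the study's methods speak of TPM. The extraction protocol in the labels names mouse liver, which the sample titles do not. Low values gave whole reads in all libraries (tolerance 0.1 reads), from which the reads held by the rows of the table were estimated. The table held 0 further columns of sample values.

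Members were selected as described, and groups were taken from the labels. The limma package (3.58.1, under R 4.3.3, trended empirical Bayes) tested differences over rows that reached 5 normalized counts in 4 or more libraries, with Benjamini-Hochberg adjustment over all of them and a threshold of 0.05. Cells (12 libraries), tumors (16) and all 28 libraries were fitted separately, and the scripts were tested on simulated data. A symbol was named by level, size of difference, adjusted p, nearness to the thresholds or position beside another member, and further genes were named after their values were seen. The members and gene lists were chosen with earlier results of these data known. Alternatives were another pseudocount (1), filters, normalizations, a fit without a trend, a replicate block and each library left out. Annotation was GENCODE vM21 and promoters were RefSeq GRCm38.p6, which may differ from the authors' build.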

Additional observations from a re-analysis of the deposited data

Results flagged for a closer look

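In the 48 members, 336 groups of 4 were examined for a library apart from the others, and 20 had one by Dixon's criterion, where chance gives about 1 in 20 groups. In 9 of them the library apart stood at 2, without reads: Xpo7 in WT cells 1, Airn in WT cells 4 and WT tumor 2, Wnk1 in WT tumor 4 and KEAP1-KO tumor B 4, Adam10 in KEAP1-KO tumor B 2, Mtpap in KEAP1-KO tumor B 3, and Dst in KEAP1-KO tumor A 4 and DKO tumor 1. In another 2 it was the only library with reads, Adam10 at 7.05 in DKO cells 4 and Dst at 6.18 in WT tumor 2. The gaps of these libraries were between 3.01 and 5.43.

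In the others the gaps were between 0.14 and 0.41. In KEAP1-KO tumors A, Slit1 stood at 10.14, Pax5 at 6.98 and Gm43366 at 6.69 in tumor 1, and Slc9a2 at 11.1 in tumor 3. In WT cells, Cfap300 stood at 5.62 in library 4 and Gm49590 at 3.06 in library 3. Dnhd1 stood at 6.69 in KEAP1-KO cells 4, 4930579C12Rik at 4.30 in DKO cells 2 and Slc35g2 at 5.15 in DKO cells 3.

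The difference between DKO and KEAP1-KO was not the same in tumors as in cells for 5 members, by the limma test of that difference. It was more positive in tumors for Cryab (2.29), Ckb (1.12) and Ass1 (0.98), and more negative for Slc9a2 (-0.87) and Galnt3 (-0.76). The test was added after Slc9a2 had been seen, and it called 3.67% of 37246 rows. The share among symbol rows with the same minimum level was not computed, so nothing is read from the count of 5.

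Rows without a symbol were not among the members, and 9 of them met the same thresholds. The largest was Tcf12-220, a transcript of a helix-loop-helix factor gene, with differences of 4.19, 4.40, 7.02 and 6.87 in KEAP1-KO cells, DKO cells, KEAP1-KO tumors A and DKO tumors. The smallest of the 4 differences was 1.29 for Zfp326-206, 1.22 for Huwe1-211, 1.22 for ENSMUSG00000120104, 1.2 for Kdm5b-206 and 1.19 for Cul7-206. It was 1.10 for Srrm2-212, 1.05 for ENSMUST00000241911 and 1.01 for AI413582-207. In KEAP1-KO tumors B, which the rule did not use, the 9 rows differed from WT tumors by 0.00 (ENSMUST00000241911) to 7.10 (Tcf12-220), with Zfp326-206 at 0.87 and the other 6 between 1.33 and 2.85.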

How the results depend on the processing

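The number of members was 76 with a threshold of 0.8 and 28 with a threshold of 1.2, and 44 to 54 with 1 library left out. Without WT cells 4, and likewise without WT tumor 2, 41 of the 48 stayed, the fewest. Members that missed the rule without 1 library include Slc9a2 (0.89 without WT tumor 2), Afp (0.94 without DKO tumor 3), Hecw2 (0.94 without WT tumor 4) and Slit1 (0.99 without WT cells 1). Calls between DKO and KEAP1-KO numbered 9 to 12 in cells and 7 to 12 in tumors over the alternatives tried. Calls between tumors and cells numbered 24 to 32 in KEAP1-KO and 19 to 33 in DKO. Of 74 differences called for single members, 56 kept their call in every alternative, 18 lost it in 1 or more, and 0 changed direction. The 18 include Casp12, Foxa1 and Gm14412 between DKO tumors and cells, and Btg3, Pcdhb18 and Tspan15 between KEAP1-KO tumors and cells. The cause was not tested. With a replicate block, 11 members were called in cells and 12 in tumors B. Same-numbered libraries did not deviate together (correlations -0.032 to 0.032), so the numbers were not taken as pairs. Each mouse carried both tumors of an experiment, but the sources do not say which tumors share a mouse. The main tests therefore leave out a pairing that the design holds. Rows with no reads in some libraries limit the members of low level: 20 of the 48 had a mean under 4 in WT cells.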

Other observations

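Gene lists that do not hold the members were compared between DKO and KEAP1-KO in the same limma fits, where 8.83% of all rows were called in cells and 8.86% in tumors B (24.0% and 19.8% of symbol rows with a KEAP1-KO cell mean of 5 or more). Of the p53 targets, 1 of 14 was higher and 2 were lower in cells, and 2 of 19 were higher and 1 was lower in tumors B. Epithelial and adhesion genes were lower in 3 of 6 in cells, and in tumors 1 of 8 was higher and 2 were lower. Mesenchymal genes moved both ways in cells (2 higher and 2 lower of 13), and 2 of 13 were higher in tumors. Germline and imprinted genes had 0 of 2 called in cells, and 3 of 7 were lower in tumors. Fibroblast markers were higher in 3 of 10 in tumors, endothelial markers were lower in 1 of 9, and keratinocyte and adipocyte markers had 0 of 4 called.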
